A study of Mus musculus with 24 samples.

Results

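Cop1 was deleted in the β cells of mice, and RNA of isolated pancreatic islets was sequenced in 3 libraries, against 3 libraries of control islets from the same set of sample numbers, below called set 1. These 6 libraries are 6 of the 24 samples described. They were taken by the sample numbers that begin alike and by the genotype in their titles, and 1 further sample number of this set was left out because it stands in 2 titles. The Cop1 deletion libraries are labelled Cop1 fl/fl; Pdx1.CreERT2, which is a floxed Cop1 gene on both chromosomes together with a Cre recombinase that tamoxifen activates and that is driven by the Pdx1 promoter. The control libraries are labelled Cop1 fl/fl, the same floxed gene, and their label names no Cre. Both genotypes were on a mixed background, the mice were 3 to 4 months old, and the islets were cultured and picked by hand before lysis, per the labels' protocols. The labels used here give no tamoxifen schedule. By the labels, Cre and loss of Cop1 differ together between the groups and cannot be told apart, and 1 library labelled control had Esr1, a marker of this Cre, at the level of the Cop1 deletion libraries. The relation of the replicates to mice or cultures is not stated, so p-values measure the spread between these libraries, which may be technical.

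COP1 is the substrate-binding part of an E3 ubiquitin ligase. With DET1, DDB1 and a cullin scaffold, and with Tribbles proteins as adaptors for some substrates, it marks transcription factors for degradation, among them JUN, CEBPA and ETV1, ETV4 and ETV5, which form the PEA3 group of ETS factors. A substrate is therefore controlled as a protein, and its own mRNA need not change. In β cells, glucose enters through GLUT2, is phosphorylated and oxidised, and the ATP made closes potassium channels, which opens calcium channels and releases insulin granules. MAFA, NKX6-1, NEUROD1 and PAX6 are transcription factors that keep this programme running.

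Promoters are shown for the 3 genes with the largest rises and the 3 with the largest falls that could be matched to the RefSeq promoter table, because these are the sequences next to the strongest signals in the data. Each is the 250 bases before the annotated start in GRCm38.p6, written 5′ to 3′ on the strand of the gene. Capitals mark matches on either strand to AGGAAG or CCGGAA, which are core sites of ETS factors of the PEA3 group. Aqp3, Rnf152 and Asb9 rose.
Aqp3 (chr4:41098184-41098433, minus strand): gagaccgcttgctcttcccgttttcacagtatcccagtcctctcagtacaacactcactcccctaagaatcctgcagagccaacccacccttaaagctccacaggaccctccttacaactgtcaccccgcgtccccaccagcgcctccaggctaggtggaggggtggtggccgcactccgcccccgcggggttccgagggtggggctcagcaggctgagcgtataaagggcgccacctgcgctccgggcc
Rnf152 (chr1:105356711-105356960, minus strand): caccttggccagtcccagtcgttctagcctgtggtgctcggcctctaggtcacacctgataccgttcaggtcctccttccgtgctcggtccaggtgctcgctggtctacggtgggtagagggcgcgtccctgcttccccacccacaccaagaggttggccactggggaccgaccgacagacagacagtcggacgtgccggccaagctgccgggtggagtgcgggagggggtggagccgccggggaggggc
Asb9 (chrX:164497653-164497902, plus strand): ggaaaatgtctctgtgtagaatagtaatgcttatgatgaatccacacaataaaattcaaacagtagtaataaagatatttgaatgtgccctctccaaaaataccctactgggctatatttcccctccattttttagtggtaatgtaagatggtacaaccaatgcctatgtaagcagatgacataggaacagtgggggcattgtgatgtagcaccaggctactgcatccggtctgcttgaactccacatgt
Cib3, Nnat and Trpm5 fell.
Cib3 (chr8:72212838-72213087, minus strand): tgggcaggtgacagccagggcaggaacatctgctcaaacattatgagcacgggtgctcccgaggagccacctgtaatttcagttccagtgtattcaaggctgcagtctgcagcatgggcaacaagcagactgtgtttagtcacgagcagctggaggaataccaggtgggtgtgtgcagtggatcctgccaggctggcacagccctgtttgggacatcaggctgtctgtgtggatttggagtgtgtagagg
Nnat (chr2:157559828-157560077, plus strand): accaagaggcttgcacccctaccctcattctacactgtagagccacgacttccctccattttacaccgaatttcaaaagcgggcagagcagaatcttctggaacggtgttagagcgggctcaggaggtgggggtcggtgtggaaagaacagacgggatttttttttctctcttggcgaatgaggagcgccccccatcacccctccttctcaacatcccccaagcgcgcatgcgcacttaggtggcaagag
Trpm5 (chr7:143094643-143094892, minus strand): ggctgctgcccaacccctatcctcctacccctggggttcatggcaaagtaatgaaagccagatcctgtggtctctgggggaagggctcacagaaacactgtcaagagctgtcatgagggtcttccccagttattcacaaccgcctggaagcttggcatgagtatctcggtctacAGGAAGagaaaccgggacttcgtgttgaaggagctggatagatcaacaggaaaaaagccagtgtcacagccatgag
The search found 1 match in these 6 windows, AGGAAG on the plus strand of the Trpm5 window, 76 bases before the start. Such letters are common. AGGAAG stood in 29.2% of all promoters of this length in the table and CCGGAA in 12.2%. Among genes tested for expression the shares were 26.8% and 22.3%. AGGAAG stood in 35.2% of 454 promoters of genes called higher and in 25.3% of 395 promoters of genes called lower, and CCGGAA in 13% and 16.7%. These shares are a description without a test, and they say nothing about which factor binds.

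The authors deposited RPKM values, in which the reads of a gene are divided by its length and by the size of the library. Total RPKM was 569486 to 599519 in the Cop1 deletion libraries and 611784 to 662745 in control libraries, and 13352 to 13517 genes reached 1 RPKM in each library. Depth relative to the deepest of the 6 was 0.723 to 0.805 in Cop1 deletion and 0.628 to 1 in control, and the number of reads is unknown. Defining genes of islets were high in all 6 libraries: the insulin genes Ins1 and Ins2 held 31.5% to 34.5% of total RPKM in Cop1 deletion libraries and 38.9% to 40.7% in control libraries. The first principal component, with 49.3% of the variance, placed the Cop1 deletion libraries at 17.2 to 20 and the control libraries at -26.3 to -9.7. The sexes were not balanced. Control replicate 3 had 32.7 RPKM of Xist, which inactive X chromosomes express, and nearly no Y-linked transcripts. Cop1 deletion replicate 2 had both Xist, at 10.4 RPKM, and Y-linked transcripts, and the other 4 libraries had Y-linked transcripts with Xist at 0.027 RPKM or less.

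The Cop1 transcript (NCBI Gene 26374) was low in all libraries. It measured 1.13, 0.984 and 1 RPKM in Cop1 deletion libraries, against 1.53, 1.22 and 1.55 RPKM in control libraries, which gives 1.04 ± 0.079 RPKM in Cop1 deletion and 1.44 ± 0.19 RPKM in control libraries (SD, n = 3 each). Every Cop1 deletion library lay below every control library, which was also the case for 15.7% of all genes tested. The difference of -0.33 log2 units (SE 0.12) did not pass the test over all genes in limma (adjusted p = 0.15). The exact permutation test of Cop1 alone gave p = 0.10, 2-sided, the smallest that 3 against 3 libraries can give. One value per gene covers the whole transcript, so reads from exons outside the floxed part also enter it, as do cells of the islet that carry no active Cre.

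Esr1 encodes the estrogen receptor, a part of which is fused to Cre in CreERT2, and it went against 1 label. It measured 106, 105 and 111 RPKM in Cop1 deletion libraries, and 0.169, 99.1 and 0.191 RPKM in the libraries labelled control replicates 1, 2 and 3. The library labelled control replicate 2 thus had an Esr1 value near that of the libraries labelled with Cre. The difference in Esr1 was 4.91 with it (limma adjusted p = 0.23) and 7.31 without it (adjusted p = 8.5e-08). Its Cop1 value of 1.22 RPKM was the lowest of the controls and above the 1.13 RPKM of the highest Cop1 deletion library. Of 1477 genes called without this library, it lay nearer to the Cop1 deletion mean for 31.1%, against 24% for control replicate 3 and 6.45% for control replicate 1, each judged on genes called without it. Its group stays that of its label here.

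**Figure D1:**
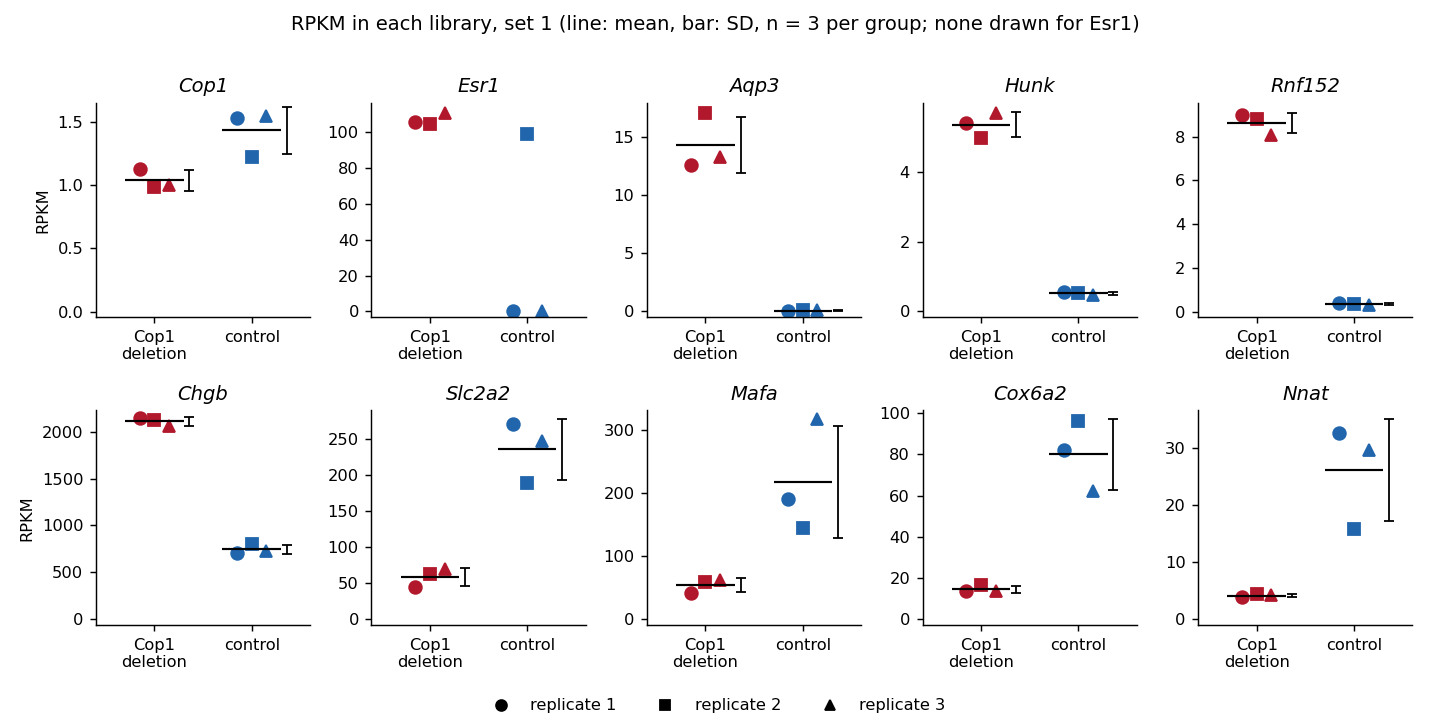
RPKM (linear axes) of 10 genes in each library of set 1, with Cop1 deletion in red on the left of each panel and control in blue on the right; symbols give the replicate, lines the mean and bars the SD, which are not drawn for Esr1. The library labelled control replicate 2 has 99.1 RPKM of Esr1, against 0.118 RPKM of Aqp3 and 0.538 RPKM of Hunk, which are control levels.

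In all, 1138 of 13560 genes tested (8.39%) were called, that is, had an adjusted p under 0.05 in limma on log2(RPKM + 0.5). Of these, 591 were higher after Cop1 deletion (4.36% of genes tested) and 547 were lower (4.03%). The changes were mostly small: 95 of the higher and 88 of the lower genes changed at least 2-fold, and 339 and 311 changed less than 1.5-fold. In each of the 1138 genes the groups did not overlap, which is also the case for 14.8% of genes tested in the higher and 15.7% in the lower direction. A scaling of all libraries to equal total RPKM moved the median of all genes to 0.12 log2 units (as deposited, -0.01), and 1158 genes were then higher (8.54%) and 284 lower (2.09%). All 591 higher genes and 281 of the 547 lower genes stayed called under it, and each kept its direction. A scaling to equal total RPKM without Ins1 and Ins2 left the median at -0.01, with 440 genes higher and 486 lower. With the median log2 ratio set to 0, 601 genes were higher and 532 lower. Without the library labelled control replicate 2, 750 genes were higher (5.53%) and 727 lower (5.36%), among them 515 and 460 of the genes called with it. The counts were 302 and 248 without Cop1 deletion replicate 1, 205 and 170 without replicate 2, and 283 and 252 without replicate 3 of that group, 285 and 211 without control replicate 1, and 548 and 561 without control replicate 3.

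**Figure D2:**
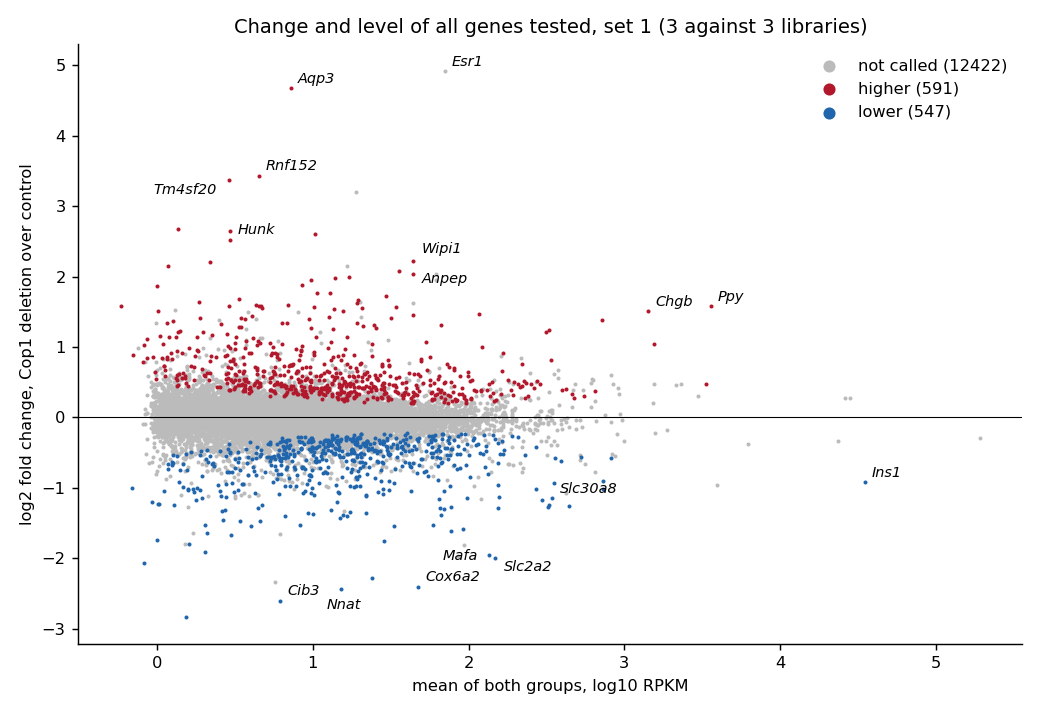
Log2 fold change of Cop1 deletion over control against the mean level of both groups (log10 RPKM) for the 13560 genes tested in set 1; red points were called higher (591), blue points lower (547), grey points not called. Aqp3 rises by 4.67 and Cib3 falls by 2.60 log2 units, while Esr1, at 4.91, is not called, with 99.1 RPKM in the library labelled control replicate 2.

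The largest rises were in genes that control islets hardly expressed. Aqp3, a channel for water and glycerol, measured 12.6, 17.1 and 13.3 RPKM in Cop1 deletion libraries, against 0, 0.118 and 0.125 RPKM in control libraries. It rose by 4.67 log2 units (SE 0.15, limma adjusted p = 3.6e-05), and the library labelled control replicate 2 was as low as the other controls. Rnf152, which encodes a ubiquitin ligase of lysosomes, measured 9, 8.78 and 8.09 RPKM in Cop1 deletion, against 0.395, 0.352 and 0.29 RPKM in control libraries, a rise of 3.43 (SE 0.10, adjusted p = 3.4e-05). Gm17634, whose span overlaps that of Rnf152, was called in the same direction (log2 fold change 2.16, adjusted p = 0.0011), so reads of the pair may be shared. Tm4sf20, a membrane protein gene of the L6 family, measured 6.28, 6.89 and 3.91 RPKM in Cop1 deletion, against 0.0649, 0.0459 and 0.146 RPKM in control libraries (log2 fold change 3.37, SE 0.20, adjusted p = 0.00041). Hunk, a protein kinase gene, had 5.41, 4.99 and 5.71 RPKM in Cop1 deletion, against 0.555, 0.538 and 0.472 RPKM in control libraries, and rose by 2.52 (SE 0.10, adjusted p = 8.8e-05). For these 4 genes the lowest Cop1 deletion library was far above the highest control library.

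A second group of rises was in genes that control islets already expressed. Wipi1, which binds phosphoinositides on forming autophagosomes, averaged 72.9 ± 15 RPKM in Cop1 deletion and 15 ± 1.4 RPKM in control libraries (SD, n = 3 each; log2 fold change 2.23, SE 0.16, adjusted p = 0.00086). Tmed6, a member of the p24 family of cargo receptors between the endoplasmic reticulum and the Golgi apparatus, averaged 57.9 ± 8.9 RPKM in Cop1 deletion and 13.5 ± 2.8 RPKM in control libraries (2.07, adjusted p = 0.0014). Anpep, the membrane peptidase aminopeptidase N, averaged 71.3 ± 8.2 RPKM in Cop1 deletion and 16.9 ± 1.4 RPKM in control libraries (2.04, SE 0.10, adjusted p = 0.00014). Car8, a carbonic anhydrase-related protein that binds the inositol trisphosphate receptor, averaged 27.8 ± 7.4 RPKM in Cop1 deletion and 6.5 ± 1.5 RPKM in control libraries (2.0, adjusted p = 0.0046). All 4 reached at least 5 RPKM in every control library.

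The remaining genes among the 15 largest rises were of mixed kinds. Asb9, a substrate receptor gene of another class of ubiquitin ligases, rose by 2.65, and Gm15663, annotated as a long noncoding RNA, by 2.60. Krtap17-1, a keratin-associated protein gene, rose by 1.98 and Angpt2, a ligand of the endothelial receptor TIE2, by 1.88. Mcph1, which overlaps Angpt2, was not called (-0.13, adjusted p = 0.47). Cartpt, the precursor of the peptide CART, measured 17.1, 18.6 and 11.4 RPKM in Cop1 deletion, against 2.51, 6 and 3.02 RPKM in control libraries, with the library labelled control replicate 2 the highest of the controls (1.95, adjusted p = 0.018, and 0.054 without control replicate 3). Rasgrf2, a Ras guanine nucleotide exchange factor gene, showed the same order, with 23.6, 19.7 and 16.5 RPKM in Cop1 deletion, against 4.01, 9.85 and 3.93 RPKM in control libraries (1.77, adjusted p = 0.031, and 0.077 without control replicate 3). Shisa2, of a family of endoplasmic reticulum proteins that hold back Wnt and FGF receptors, measured 11.2, 12.4 and 27.5 RPKM in Cop1 deletion, against 5.8, 4.21 and 3.14 RPKM in control libraries, so that 1 Cop1 deletion library set much of its mean (1.76, adjusted p = 0.039, 0.096 without the library labelled control replicate 2 and 0.095 without control replicate 3).

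**Figure D3:**
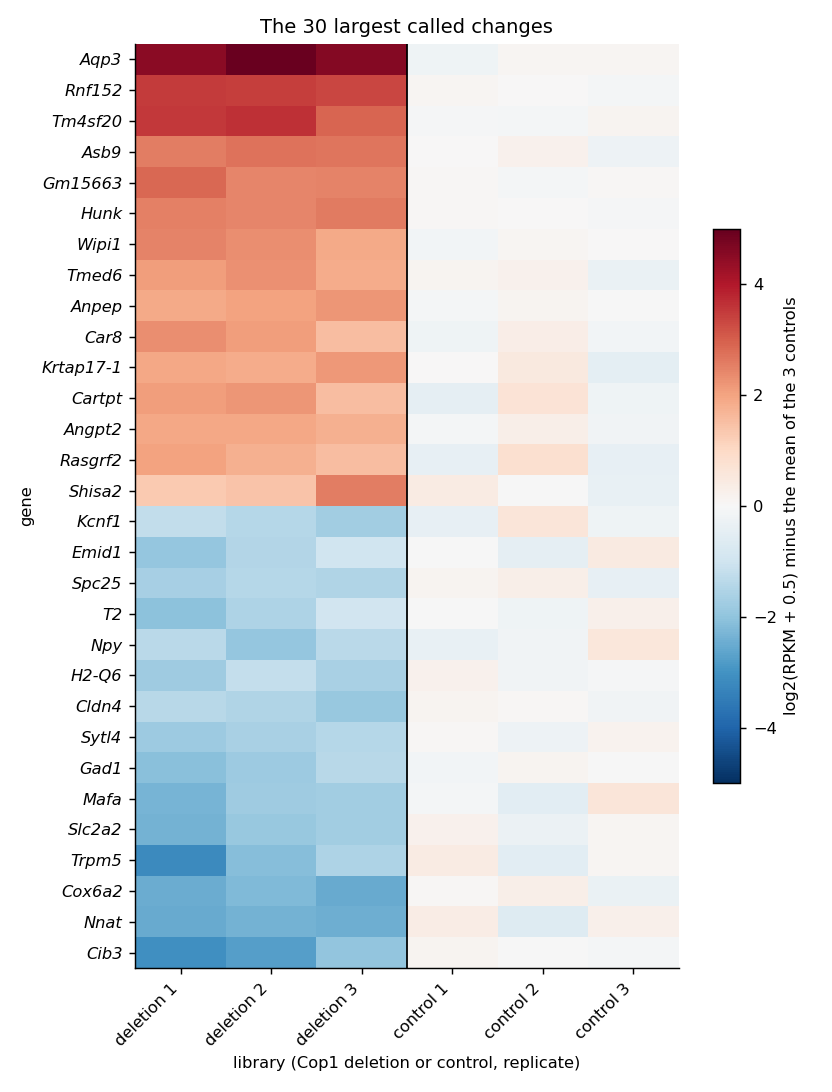
Log2(RPKM + 0.5) of the 30 largest called changes (rows, by log2 fold change) in each library of set 1, minus the mean of the 3 control libraries; the 3 Cop1 deletion columns stand left of the line and the 3 control columns right of it. Red is above and blue below the control mean. The library labelled control replicate 2 shares the control colours for Aqp3 and Hunk, and lies partway for Rasgrf2 and Nnat.

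The largest falls included several genes of the working β cell. Cib3, a calcium- and integrin-binding protein gene, measured 0.863, 1.19 and 2.37 RPKM in Cop1 deletion libraries, against 11.9, 10.8 and 10.1 RPKM in control libraries, and fell by 2.60 log2 units (SE 0.26, limma adjusted p = 0.0024). Nnat, the imprinted gene neuronatin, which in mouse β cells aids the processing of preproinsulin, measured 3.89, 4.44 and 4.21 RPKM in Cop1 deletion, against 32.6, 15.9 and 29.7 RPKM in control libraries (-2.44, SE 0.26, adjusted p = 0.0039). The library labelled control replicate 2 had the lowest of these control values. Blcap, the gene in which Nnat lies, was not called (-0.28, adjusted p = 0.12). Cox6a2, a cytochrome c oxidase subunit known best from heart and skeletal muscle, measured 13.7, 16.5 and 13.5 RPKM in Cop1 deletion, against 82, 96 and 62 RPKM in control libraries (-2.40, SE 0.16, adjusted p = 0.00079). Itgad, which overlaps Cox6a2, fell with it at far lower levels (0.378 RPKM in Cop1 deletion and 1.47 RPKM in control libraries, adjusted p = 0.023). Trpm5, a cation channel opened by calcium, measured 3.81, 8.41 and 12.7 RPKM in Cop1 deletion, against 51.6, 26.5 and 41.3 RPKM in control libraries (-2.29, SE 0.44, adjusted p = 0.03). Its call ended without the library labelled control replicate 2 (adjusted p = 0.051) and without control replicate 3 (0.079). The groups did not overlap, as for 15.7% of genes tested in the lower direction.

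Slc2a2 and Mafa came next. Slc2a2, which encodes GLUT2, measured 45, 62.8 and 68.9 RPKM in Cop1 deletion libraries, against 271, 189 and 247 RPKM in control libraries, and fell by 2.0 (SE 0.19, adjusted p = 0.0024). Mafa measured 41.3, 59.3 and 61.3 RPKM in Cop1 deletion, against 191, 145 and 318 RPKM in control libraries, and fell by 1.95 (SE 0.30, adjusted p = 0.015). In both genes the library labelled control replicate 2 was the lowest control and still over 2 times the highest Cop1 deletion library. In whole islets, fewer β cells and less RNA per β cell cannot be told apart.

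Further falls among the 15 largest were in Gad1, which makes the transmitter GABA (-1.76, adjusted p = 0.002), the granuphilin gene Sytl4, whose product docks granules (-1.62, adjusted p = 0.0013), and Cldn4, a tight junction gene (-1.59, adjusted p = 0.0017). Npy, the gene of neuropeptide Y, fell by 1.54 (adjusted p = 0.026, and 0.051 without the library labelled control replicate 2). H2-Q6, a class I histocompatibility gene of a family with near-identical copies, fell by 1.54, and its value is uncertain for that reason. Spc25, of the kinetochore complex that holds microtubules, averaged 30.1 ± 2.5 RPKM in Cop1 deletion and 89 ± 21 RPKM in control libraries (SD, n = 3 each) and fell by 1.52 (adjusted p = 0.0046). T2 fell by 1.52, Emid1, an EMI-domain protein gene, by 1.47 and Kcnf1, a modifying subunit of potassium channels, by 1.46, each with 15 RPKM or less in every library, and T2 (adjusted p = 0.061) and Emid1 (0.058) were not called without control replicate 3.

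The members and the gene lists below were chosen with earlier results of these data known. Their shares beside those of all genes are therefore a description and no test. Of 10 ligase partners and adaptors of COP1 tested, Cop1 among them, 1 was called, which is 10% against 8.39% of all genes tested, with a median log2 fold change of -0.02 against -0.01 over all genes tested. Trib2, a Tribbles adaptor, rose to 3.93, 3.79 and 3.98 RPKM in Cop1 deletion libraries, against 2.92, 2.71 and 2.47 RPKM in control libraries (0.46, SE 0.09, limma adjusted p = 0.025). Det1 (-0.13), Ddb1 (0.15), Trib1 (-0.04) and Trib3 (-0.01) were not called.

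Of 21 genes of COP1 substrates and ETS factors tested, 1 rose (4.76%) and 3 fell (14.3%), against 4.36% and 4.03% over all genes (median -0.23). None of the PEA3 group was called. Etv1 averaged 4.72 ± 0.43 RPKM in Cop1 deletion and 6.53 ± 0.78 RPKM in control libraries (SD, n = 3 each; -0.43, adjusted p = 0.057). Etv5 measured 3.58, 2.51 and 2.31 RPKM in Cop1 deletion, against 4.17, 8.43 and 2.23 RPKM in control libraries, and the groups overlapped (-0.57, adjusted p = 0.45). Etv4 stayed at 0.118 RPKM or less in the 6 libraries and was not tested. Elf3 and Ehf, 2 ETS factors of epithelia, moved in opposite directions. Elf3 measured 19.8, 22 and 18.1 RPKM in Cop1 deletion, against 43.5, 44.9 and 36.1 RPKM in control libraries (-1.04, SE 0.10, adjusted p = 0.0021). Ehf measured 18.7, 17.6 and 20.2 RPKM in Cop1 deletion, against 9.83, 11.5 and 9.02 RPKM in control libraries (0.87, SE 0.10, adjusted p = 0.0033). Jund, of the AP-1 family, fell by 0.62 (adjusted p = 0.047, and 0.08 without control replicate 3), and Crtc2, a CREB coactivator and COP1 substrate, by 0.25 (adjusted p = 0.037), which did not pass without control replicate 3 (0.06) or with libraries scaled to equal total RPKM (0.31). Jun measured 277, 482 and 521 RPKM in Cop1 deletion, against 1005, 258 and 1329 RPKM in control libraries (-0.77, adjusted p = 0.5). It passed without the library labelled control replicate 2 (0.039). Fos, also of the AP-1 family, had 1275, 229 and 1660 RPKM in control libraries and was not called (-0.52), nor was Cebpa (0.05). Without the library labelled control replicate 2, 2 members were higher and 5 lower.

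Of 16 feedback genes of the ERK pathway, 2 rose (12.5%) and 1 fell (6.25%), against 4.36% and 4.03% over all genes (median -0.11). Several of the 16 are targets of PEA3 factors in other tissues. Dusp6, the phosphatase that switches ERK off in the cytoplasm, measured 32.1, 25.9 and 24.6 RPKM in Cop1 deletion libraries, against 9.59, 15.1 and 8.04 RPKM in control libraries (1.34, SE 0.23, adjusted p = 0.019). Spry2, a Sprouty inhibitor of receptor tyrosine kinase signalling, measured 7.34, 6.18 and 5.88 RPKM in Cop1 deletion, against 4.18, 4.27 and 4.11 RPKM in control libraries (0.57, adjusted p = 0.014). Fosl1, an AP-1 gene, fell by 1.07 (adjusted p = 0.0038), together with the overlapping Ccdc85b (-0.78, adjusted p = 0.00086). Dusp4 (-0.77, adjusted p = 0.1), Spry4 (-0.10) and Egr1 (-0.60) were not called.

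Of 21 β-cell transcription factor genes tested, 1 rose (4.76%) and 4 fell (19%), against 4.36% and 4.03% over all genes (median -0.23). Beside Mafa these were Nkx6-1, Neurod1 and Pax6. Nkx6-1 measured 93.2, 92.8 and 104 RPKM in Cop1 deletion libraries, against 181, 137 and 190 RPKM in control libraries (-0.80, SE 0.12, limma adjusted p = 0.011). Neurod1 measured 62.1, 55.7 and 58.7 RPKM in Cop1 deletion, against 96.1, 83.6 and 87.1 RPKM in control libraries (-0.59, SE 0.07, adjusted p = 0.0046). Pax6 averaged 73.5 ± 2.7 RPKM in Cop1 deletion and 98.1 ± 12 RPKM in control libraries (SD, n = 3 each; -0.41, adjusted p = 0.038, 0.051 with equal total RPKM and 0.077 without control replicate 3). Foxo1, which moves to the nucleus in stressed β cells, averaged 20 ± 0.17 RPKM in Cop1 deletion and 14.7 ± 2.1 RPKM in control libraries and rose (0.44, adjusted p = 0.043). Pdx1, whose promoter drives the Cre, differed by -0.08 (adjusted p = 0.75). Without the library labelled control replicate 2, 9 members were lower and 1 higher, and one of those added was Nr4a1, an early response gene (-1.08, adjusted p = 0.064 with all libraries and 0.0046 without it).

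Of 11 genes of endocrine progenitors and of dedifferentiated β cells tested, 2 rose (18.2%, against 4.36% over all genes) and none fell (median 0.48). Neither of the 2 was called without Cop1 deletion replicate 2. A further 5 of the 16 members were too low to test. Gast, the gastrin gene of the fetal pancreas, measured 2.36, 3.78 and 2.73 RPKM in Cop1 deletion libraries, against 0.429, 0.911 and 1.09 RPKM in control libraries (1.42, SE 0.24, adjusted p = 0.014). Hes1, a Notch target, rose by 0.52 (adjusted p = 0.032). Aldh1a3, an enzyme gene of retinoic acid synthesis that marks failing β cells and was chosen after its values were seen, measured 37.7, 39.4 and 21.2 RPKM in Cop1 deletion, against 2.04, 12.7 and 0.776 RPKM in control libraries. The groups did not overlap, as for 14.8% of genes tested in the higher direction. The library labelled control replicate 2, at 12.7 RPKM, spread the controls. Aldh1a3 was not called with all libraries (3.20, adjusted p = 0.068) and passed without that library (4.16, adjusted p = 0.008). Neurog3, the factor that starts endocrine development, averaged 3.72 ± 1.2 RPKM in Cop1 deletion and 1.65 ± 0.49 RPKM in control libraries (0.96, adjusted p = 0.057), and passed with equal total RPKM (0.024) and without control replicate 3 (0.049). Nanog and Pou5f1, pluripotency genes, were listed at 0 in all 6 libraries.

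Genes of glucose uptake and phosphorylation fell: 5 of 11 tested were lower (45.5%, against 4.03% over all genes) and none higher (median -0.34). Like the other lists, this one was chosen with earlier results of these data known, so its share is a description. G6pc2, the islet glucose-6-phosphatase, which takes the phosphate off glucose 6-phosphate, measured 467, 495 and 485 RPKM in Cop1 deletion libraries, against 1076, 1096 and 786 RPKM in control libraries (-1.02, SE 0.13, limma adjusted p = 0.0051). Pfkfb2, which sets the level of the glycolytic activator fructose 2,6-bisphosphate, averaged 13.4 ± 0.36 RPKM in Cop1 deletion and 22.5 ± 1.1 RPKM in control libraries (SD, n = 3 each; -0.73, SE 0.06, adjusted p = 0.0012). Slc37a4, the glucose-6-phosphate transporter, and Adpgk, an ADP-dependent kinase of glucose, each fell by 0.34 (adjusted p = 0.041 and 0.032), and neither passed with equal total RPKM (0.18 and 0.17), nor did Slc37a4 without the library labelled control replicate 2 (0.067).

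Of 16 glycolysis genes tested, 1 fell (6.25%, against 4.03% of all genes tested, median -0.17): Tpi1, triose phosphate isomerase, by 0.25 (adjusted p = 0.043), which did not pass without control replicate 2 (0.059) or 3 (0.079) or with equal total RPKM (0.27). Gapdh was listed at 0.915 RPKM in Cop1 deletion and 0.892 RPKM in control libraries on average. It has many near-identical copies in the genome, and how shared reads were counted is not given in the sources used here, so its value is uncertain. Of 26 genes of mitochondrial oxidation and shuttles, 3 rose (11.5%, against 4.36% of all genes tested) and none fell (median -0.08). Slc25a13 and Slc25a12, both aspartate-glutamate carriers of the malate-aspartate shuttle, rose by 0.68 (adjusted p = 0.014) and 0.29 (adjusted p = 0.02). Me3, a mitochondrial malic enzyme, measured 2.87, 2.08 and 1.57 RPKM in Cop1 deletion, against 0.402, 0.956 and 0.578 RPKM in control libraries (1.22, adjusted p = 0.023, and 0.053 without control replicate 3). Gpd2, the mitochondrial glycerol phosphate dehydrogenase (-0.74, adjusted p = 0.079), and Idh2, an isocitrate dehydrogenase (-0.59, adjusted p = 0.088), were not called, and both passed without the library labelled control replicate 2 (0.027 and 0.029), where 3 members were higher and 2 lower. Among 13 cytochrome c oxidase subunits tested, Cox6a2 was the 1 called (7.69% lower, against 4.03% over all genes), and the median was -0.00. Its widely expressed counterpart Cox6a1 averaged 127 RPKM in Cop1 deletion and 124 RPKM in control libraries (0.03, adjusted p = 0.75).

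The insulin genes and the enzymes that process prohormones split. Of 12 tested, 2 rose (16.7%) and 3 fell (25%), against 4.36% and 4.03% over all genes (median -0.15). Ins1 measured 20794, 23105 and 29057 RPKM in Cop1 deletion libraries, against 50279, 40562 and 45926 RPKM in control libraries, and fell by 0.92 (SE 0.15, limma adjusted p = 0.013). Ins2, the more abundant insulin gene, averaged 171418 ± 6763 RPKM in Cop1 deletion and 209829 ± 11070 RPKM in control libraries (SD, n = 3 each), a difference of -0.29 that did not pass (adjusted p = 0.15). Slc30a8, the zinc transporter of insulin granules, measured 193, 224 and 228 RPKM in Cop1 deletion, against 501, 433 and 494 RPKM in control libraries (-1.15, SE 0.09, adjusted p = 0.00086). Ero1b, the oxidase that forms disulfide bonds in proinsulin, measured 181, 170 and 189 RPKM in Cop1 deletion, against 375, 381 and 474 RPKM in control libraries (-1.18, SE 0.10, adjusted p = 0.0012). Pam, which amidates peptide hormones, rose to 278 ± 2.6 RPKM in Cop1 deletion, against 164 ± 12 RPKM in control libraries (0.76, adjusted p = 0.0013), and Scg5, the chaperone of the convertase PC2, by 0.37 (adjusted p = 0.018). Iapp, the amyloid polypeptide released with insulin and chosen after its values were seen, averaged 30839 ± 1945 RPKM in Cop1 deletion and 25595 ± 1815 RPKM in control libraries and was not called (0.27, adjusted p = 0.15), but passed with equal total RPKM (0.018).

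Granins and other granule genes also moved both ways (median 0.05). Of 16 tested, 6 were higher (37.5%) and 5 lower (31.2%), against 4.36% and 4.03% over all genes. Chgb, chromogranin B of the granule core, measured 2144, 2128 and 2061 RPKM in Cop1 deletion libraries, against 704, 799 and 731 RPKM in control libraries (1.5, SE 0.07, adjusted p = 0.00014). Chga, the related chromogranin A, averaged 5391 RPKM in Cop1 deletion and 7085 RPKM in control libraries and was not called (-0.38, adjusted p = 0.13). Cartpt, Scg2, Scg5, Ptprn and Ica1 rose as well, the last, an islet autoantigen gene, by 0.40 (adjusted p = 0.0087), and Scg2 (adjusted p = 0.034) was not called without the library labelled control replicate 2 (0.069). Nnat, Gad1, Sytl4, Npy and Vgf, the gene of a granin-like precursor, fell, and Vgf (adjusted p = 0.048) was not called without that library (0.083) or with equal total RPKM (0.071). Without the library labelled control replicate 2, 5 were higher and 3 lower.

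Of 32 genes of the exocytosis machinery tested, 6 rose (18.8%) and 2 fell (6.25%), against 4.36% and 4.03% over all genes (median -0.04). Rab3b, a small GTPase of granules, measured 29.4, 33.3 and 34.6 RPKM in Cop1 deletion libraries, against 14, 13.7 and 19.1 RPKM in control libraries (1.05, SE 0.13, adjusted p = 0.0054), and 8030443G20Rik, which overlaps it, rose with it (0.95). Cadps2, a priming factor of dense-core granules, rose by 0.76 (adjusted p = 0.0084) and Syt13, an atypical synaptotagmin, by 0.39 (adjusted p = 0.0094). The core fusion protein genes Vamp2 (-0.02) and Stx1a (-0.18) were not called.

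Among 32 ion channel and calcium pump genes of secretion coupling, 3 rose (9.38%) and 6 fell (18.8%), against 4.36% and 4.03% over all genes (median -0.03). The counts were 3 and 4 without the library labelled control replicate 2. Atp2a2, the calcium pump SERCA2 of the endoplasmic reticulum, measured 191, 180 and 168 RPKM in Cop1 deletion libraries, against 366, 405 and 320 RPKM in control libraries (-1.01, SE 0.10, limma adjusted p = 0.0018). Abcc8, the sulfonylurea receptor subunit of the potassium channel that ATP closes, averaged 294 ± 10 RPKM in Cop1 deletion and 211 ± 15 RPKM in control libraries (SD, n = 3 each) and rose (0.48, adjusted p = 0.0085). Its pore subunit Kcnj11 fell by 0.25 (adjusted p = 0.045), which did not pass without the library labelled control replicate 2 (0.059) or with equal total RPKM (0.38). Of the sodium channel genes, Scn3a rose to 5.77, 4.91 and 5.13 RPKM in Cop1 deletion, against 2.09, 2.34 and 2.23 RPKM in control libraries (1.08, SE 0.09, adjusted p = 0.0013) and Scn9a rose by 0.72 (adjusted p = 0.014). The calcium channel gene Cacna1c (-0.17) was not called.

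Of 32 receptor and cAMP signalling genes, 2 rose (6.25%) and 3 fell (9.38%), against 4.36% and 4.03% over all genes (median -0.02). Leaving out the library labelled control replicate 2 gave 3 higher and 8 lower. Glp1r, the receptor of the incretin GLP-1, measured 108, 122 and 130 RPKM in Cop1 deletion libraries, against 185, 166 and 217 RPKM in control libraries (-0.65, SE 0.11, adjusted p = 0.016). Prlr, the prolactin receptor that drives β-cell growth in pregnancy, measured 18.5, 18.7 and 16.9 RPKM in Cop1 deletion, against 34.1, 38.6 and 43.8 RPKM in control libraries (-1.08, SE 0.10, adjusted p = 0.0014). Adcy9, an adenylyl cyclase, fell by 0.38 (adjusted p = 0.0093, and 0.073 with equal total RPKM). Prkar1a, a regulatory subunit that holds protein kinase A inactive, rose by 0.47 (adjusted p = 0.022), and Gprc5b, an orphan receptor, by 0.88 (adjusted p = 0.013), as did the overlapping Iqck (0.56). Ucn3, a peptide of mature β cells, averaged 315 RPKM in Cop1 deletion and 397 RPKM in control libraries and was not called (-0.33, adjusted p = 0.095), but passed without the library labelled control replicate 2 (0.042).

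Of 30 genes of protein folding in the endoplasmic reticulum and the unfolded protein response, 4 rose and none fell (median 0.18). The share higher was 13.3%, against 4.36% over all genes, and 9 rose without the library labelled control replicate 2. Ern1, the stress sensor IRE1α, measured 66.6, 60.9 and 61.5 RPKM in Cop1 deletion libraries, against 32.7, 37 and 36.3 RPKM in control libraries (0.83, SE 0.07, limma adjusted p = 0.0011). The folding genes Pdia6 (0.43), Sdf2l1 (0.50) and P4hb (0.30) rose as well. The stress-induced factors Ddit3 (-0.00), Atf4 (-0.09) and Xbp1 (-0.17) were not called. Of 15 genes of the amino acid response and serine synthesis, 1 rose (6.67%, against 4.36% over all genes) and no other was called (median 0.09). It was Vldlr, a lipoprotein receptor, which rose by 0.52 (adjusted p = 0.023).

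Heat shock genes of the cytosol and mitochondria were lower: 6 of 13 fell (46.2%, against 4.03% over all genes) and none rose. The median was -0.53, with all 13 differences between -0.71 and -0.34. Hsp90ab1, a major cytosolic chaperone, measured 660, 702 and 629 RPKM in Cop1 deletion libraries, against 1002, 879 and 1084 RPKM in control libraries (-0.57, SE 0.09, adjusted p = 0.012). Hsp90aa1 fell by 0.71, Dnaja1 by 0.69, Hspd1 and Hspe1, a chaperonin pair that share a promoter region and overlap, by 0.53 and 0.60, and Hspa8 by 0.48 (adjusted p = 0.033, and 0.063 without control replicate 3). Hspa8 and Hspe1 were not called with equal total RPKM (adjusted p = 0.054 each). The number called was 10 without the library labelled control replicate 2 and 0 without Cop1 deletion replicate 2.

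Among 15 p53 target genes tested, Plk2, a polo-like kinase gene, was the 1 called, with 30.9, 35.7 and 42.2 RPKM in Cop1 deletion libraries, against 16.9, 13.1 and 14.1 RPKM in control libraries (1.27, SE 0.13, adjusted p = 0.0025, list median -0.08). This 1 call is 6.67% of the list, against 4.36% called higher over all genes. Cdkn1a (-0.31) and Mdm2 (0.03) were not called. Of 20 genes of fatty acid and cholesterol synthesis, 1 was lower (5%, against 4.03% over all genes) and none higher (median -0.10). Among 15 cell cycle genes, Ccnd2, the main D-type cyclin of mouse β cells, fell to 132, 131 and 127 RPKM in Cop1 deletion, against 184, 207 and 169 RPKM in control libraries (-0.52, SE 0.08, adjusted p = 0.011, and 0.059 with equal total RPKM), and no other was called (median -0.06). Ccnd2 alone makes 6.67% of these lower, against 4.03% over all genes. The other 13 cell cycle genes, Mki67 and Cdk1 among them, were too low to test. Of 19 tested genes that β cells normally keep low, 1 rose (5.26%, against 4.36% over all genes, median 0.17). Cd44 rose by 0.45 (adjusted p = 0.026), and Ldha (-0.04) was not called.

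Of 20 imprinted genes tested, 2 rose (10%) and 5 fell (25%), against 4.36% and 4.03% over all genes (median -0.23). Beside Nnat, Peg3 averaged 97.3 ± 1.4 RPKM in Cop1 deletion and 139 ± 11 RPKM in control libraries (SD, n = 3 each; -0.51, SE 0.07, adjusted p = 0.006). Peg3os, its antisense partner, fell by 0.48, and the strand of counting is not given, so the pair cannot be told apart. Mest fell by 0.73, Impact by 0.47 (adjusted p = 0.0075, and 0.054 with equal total RPKM) and Zim1 by 1.09. Ndn, expressed from the paternal chromosome, rose by 0.50 (adjusted p = 0.0057), and Gnasas1 by 0.63 (adjusted p = 0.037).

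Cop1 deletion replicate 2, which had Xist and Y-linked transcripts together, was also left out of the list counts. Without it, 2 of 21 β-cell transcription factor genes were lower and none higher, and 3 of 11 glucose uptake genes were lower. Of 16 granule genes 2 were higher and 3 lower, and of 32 exocytosis and 32 ion channel genes 1 each way. Of 30 genes of the endoplasmic reticulum 3 were higher, of 20 imprinted genes 1 higher and 3 lower, and of 11 progenitor genes none. Over all 13560 genes tested, 205 were then called higher and 170 lower. Without the library labelled control replicate 2, 2 genes each of ERK feedback (16 tested), glycolysis (16) and the cell cycle (15) were lower. Of the amino acid response (15 tested) and of fatty acid and cholesterol synthesis (20), 2 each were higher. Of those β cells keep low (19 tested) 1 was lower, and 1 acinar (21) and 1 endothelial (12) marker were higher. Over all genes, 5.53% were higher and 5.36% lower without that library.

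**Figure D4:**
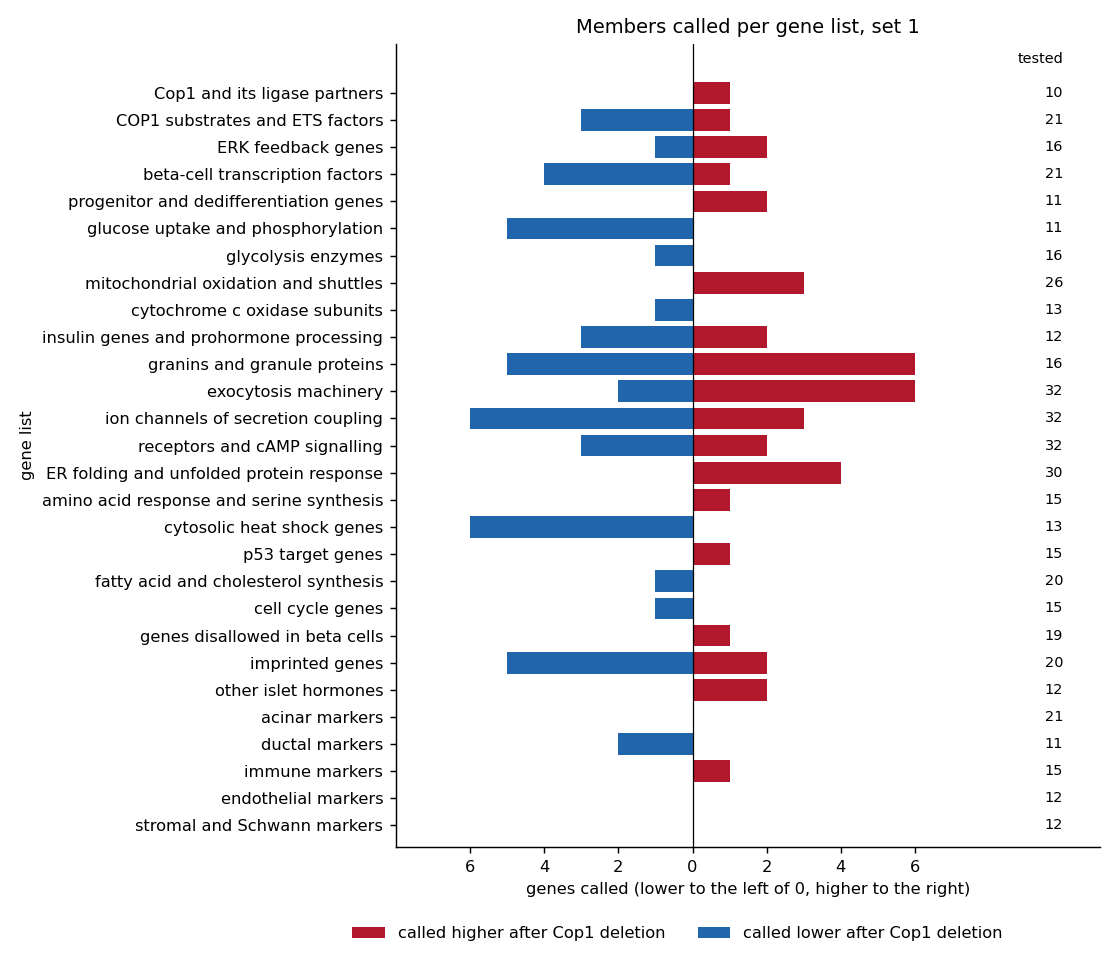
Number of members called lower (blue, left of 0) and higher (red, right of 0) after Cop1 deletion in each of 28 gene lists in set 1, with the number tested at the right edge. The lists of glucose uptake and of heat shock genes hold lower calls and no higher ones, and granins have 6 higher and 5 lower. Over all genes tested, 4.36% were called higher and 4.03% lower. The lists were chosen with earlier results of these data known.

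Hormones of the other islet cells included 2 that rose. Of 12 genes of α, δ, ε and PP cells, 2 were called higher (16.7%, against 4.36% over all genes) and none lower (median -0.00). Ppy, pancreatic polypeptide, measured 5016, 6260 and 4604 RPKM in Cop1 deletion libraries, against 1095, 2473 and 2006 RPKM in control libraries (1.58, SE 0.30, limma adjusted p = 0.027, and 0.061 without control replicate 3). Pyy, peptide YY, averaged 2070 ± 360 RPKM in Cop1 deletion and 1022 ± 260 RPKM in control libraries (SD, n = 3 each; 1.04, adjusted p = 0.029, and 0.052 without the library labelled control replicate 2). Sst, somatostatin, chosen after its values were seen, measured 2307, 2796 and 2685 RPKM in Cop1 deletion, against 5004, 3627 and 7079 RPKM in control libraries, and its adjusted p of 0.05 with all libraries just missed the threshold (-0.96; 0.011 without the library labelled control replicate 2, 0.043 without control replicate 3 and 0.045 with equal total RPKM). Gcg, glucagon, was not called (-0.34, adjusted p = 0.56). The summed RPKM of the list ran from 26776 to 38693 in Cop1 deletion and from 25691 to 52099 in control libraries, with control replicate 3 the highest, and the part of this spread in the β-cell results was not tested.

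Acinar transcripts were measured in every library. Of 21 acinar markers tested, none was called in limma (median 0.47, all 21 above 0). Their summed RPKM was 6129, 18707 and 13075 in Cop1 deletion libraries, against 11807, 10974 and 4258 in control libraries, so the groups overlapped. Ctrb1, a digestive enzyme gene, averaged 2705 ± 1434 RPKM in Cop1 deletion and 1904 ± 900 RPKM in control libraries (SD, n = 3 each). Cela2a, another, averaged 1790 ± 882 RPKM in Cop1 deletion and 1298 ± 614 RPKM in control libraries (SD, n = 3 each), and without control replicate 3 their differences of 0.48 and 0.47 turned to -0.02 and -0.01. None of the acinar markers was at 0 in all libraries, and the part of acinar RNA in other results was not tested. Of 11 ductal and epithelial markers tested, Cldn4 and Krt8 fell (18.2%, against 4.03% over all genes) and none rose (median -0.00). Their sums were 737 to 830 RPKM in Cop1 deletion and 752 to 1041 RPKM in control libraries for the whole list. Krt8, a keratin of simple epithelia, measured 97.5, 115 and 97.3 RPKM in Cop1 deletion, against 232, 224 and 157 RPKM in control libraries (-0.96, SE 0.16, adjusted p = 0.014), while its partner Krt18 was not called (-0.16). Spp1, osteopontin, chosen after its values were seen, measured 153, 73.2 and 65.5 RPKM in Cop1 deletion, against 34.4, 34.8 and 10.1 RPKM in control libraries, and was not called (1.95, adjusted p = 0.085).

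Among 15 immune markers tested, C1qa, which encodes a chain of complement C1q, was the 1 called (6.67% higher, against 4.36% over all genes). It measured 83.3, 91.2 and 112 RPKM in Cop1 deletion libraries, against 38.5, 34.4 and 41.1 RPKM in control libraries (1.31, SE 0.12, adjusted p = 0.0014). C1qb (-0.00) and C1qc (0.10), the other chains of the same complex, were not called, and the list had a median of -0.02, with sums of 336 to 456 RPKM in Cop1 deletion and 346 to 376 RPKM in control libraries. Neither the 12 endothelial markers (median 0.19) nor the 12 stromal and Schwann cell markers (median 0.26) included a called gene. Plvap and Emcn, of islet capillaries, differed by 0.17 and 0.12, and Sparc and Rgs5, of matrix and pericytes, by 0.25 and 0.21. Endothelial sums were 256 to 317 RPKM in Cop1 deletion and 241 to 265 RPKM in control libraries, and stromal sums 206 to 294 RPKM in Cop1 deletion and 176 to 248 RPKM in control libraries.

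Set 2, which shares no library with set 1, holds 4 Cop1 deletion and 4 control libraries of the same genotypes. There 454 of 13584 genes tested were called (3.34%), 282 higher (2.08%) and 172 lower (1.27%). Cop1 averaged 0.875 ± 0.078 RPKM in Cop1 deletion and 1.64 ± 0.19 RPKM in control libraries of set 2 (SD, n = 4 each). It fell by 0.64 (SE 0.12, limma adjusted p = 0.031), and the difference between the sets was not called (adjusted p = 0.52). Esr1 ran from 44 to 79.8 RPKM in Cop1 deletion and from 0.05 to 0.2 RPKM in control libraries of set 2. Of the 591 genes higher in set 1, 553 were tested in set 2, where 464 had the same direction, 97 were called higher and 0 were called lower. Of the 547 genes lower in set 1, 523 were tested in set 2, where 406 had the same direction, 69 were called lower and 3 were called higher. Aqp3 rose by 5.45 (limma adjusted p = 6.5e-07), Tm4sf20 by 3.62 and Rnf152 by 2.46 in set 2, while Mafa fell by 3.65 (adjusted p = 0.0006) and Slc2a2 by 3.37 (adjusted p = 0.001). The difference between the sets was not called for these 5 genes (adjusted p = 0.13 to 0.88). Chgb rose by 1.19 there (adjusted p = 0.0054), Sytl4 fell by 1.90 (adjusted p = 0.003) and Neurod1 by 0.79 (adjusted p = 0.0079). Some genes chosen after their values were seen and not called in set 1 passed in set 2. These were Aldh1a3 (2.83, adjusted p = 0.024), Spp1 (1.43, 0.02), Sst (-0.71, 0.043) and Dusp5 (1.58, 0.003). Neurog3 (0.28, adjusted p = 0.5), Iapp (0.44, 0.32) and Nr4a1 (-0.70, 0.097), chosen likewise, did not. Other genes described above did not pass in set 2: Ins1 (-0.56, adjusted p = 0.093), Nkx6-1 (-0.59, 0.12), Cox6a2 (-1.86, 0.073) and Cib3 (-1.26, 0.28). Genes with the opposite sign there included Cldn4 (0.43), Krt8 (0.43), Pax6 (0.12) and Ern1 (-0.07). H2-Q6 (0.34), Hspa8 (0.30), Tpi1 (0.31) and Jund (0.08), lower in set 1, were also among them. So were Foxo1 (-0.06), Sdf2l1 (-0.17), Vldlr (-0.08) and Cd44 (-0.09), higher in set 1. None of those named was called in set 2 (adjusted p = 0.5 to 0.94). The share of all genes that kept their direction between sets was not computed. In a fit of both sets, the change after Cop1 deletion differed between them for 68 of 14358 genes (0.474%), 29 with a higher log2 fold change in set 1 and 39 with a lower one.

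**Figure D5:**
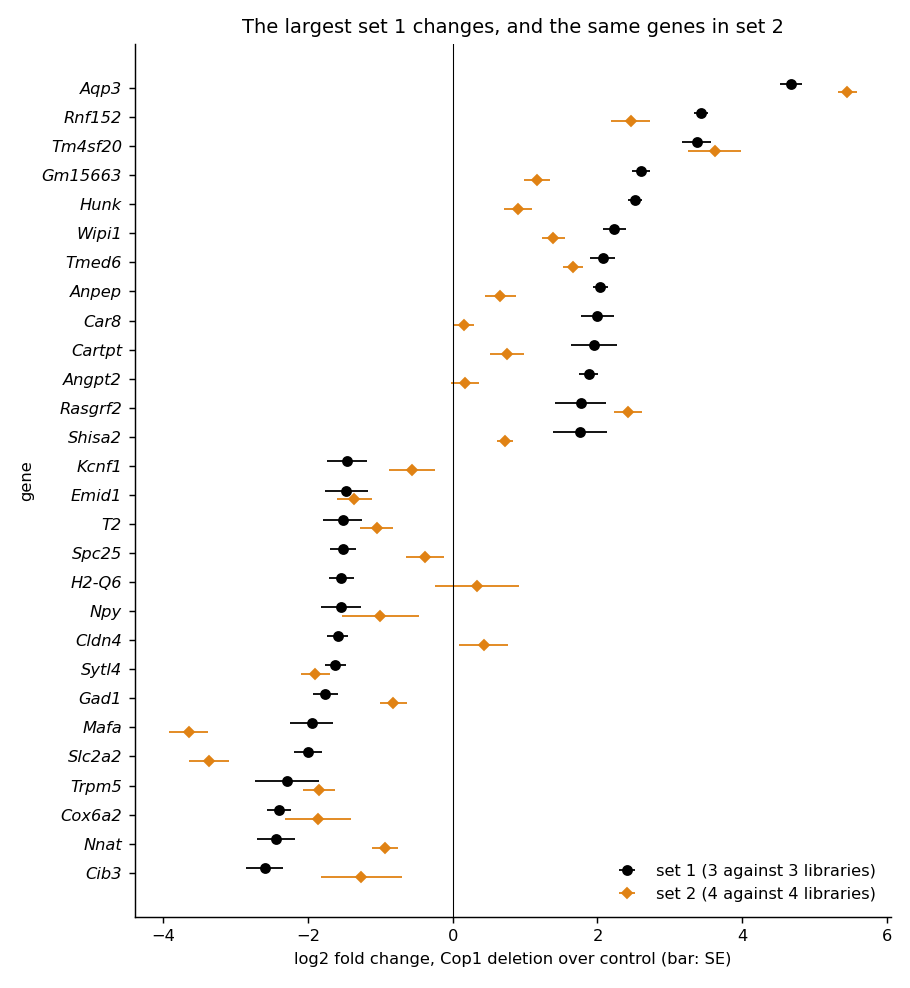
Log2 fold change of Cop1 deletion over control, with SE, for the genes among the 30 largest set 1 changes that were tested in set 2; black circles show set 1 (3 against 3 libraries) and orange diamonds set 2 (4 against 4). Aqp3 is at 4.67 in set 1 and 5.45 in set 2, Hunk at 2.52 and 0.90, and Mafa at -1.95 and -3.65.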

How the data were processed

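Libraries were made and sequenced on Illumina instruments with standard methods, per the labels' protocols. The authors deposited RPKM values for 28059 genes (NCBI Gene numbers) in 24 columns of libraries. Reads were placed on mm9, per the submitters' processing notes. Not given in the sources used here are the aligner, counter, strand setting and annotation. Symbols were looked up by Gene number in the GRCm38.p6 RefSeq table (24998 genes matched, 3061 did not), and gene overlaps were read from it. Columns were matched to samples by the number in the title, and 2 columns that could not be placed were not used. The number of reads is unknown, so no counting interval is given. Depth relative to the deepest library came from ratios of values below 0.3 RPKM.

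Genes that reached 1 RPKM in 3 or more of the 6 libraries were tested on log2(RPKM + 0.5) with limma 3.58.1 (R 4.3.3, data.table in version 1.17.8), with a variance trend and robust estimation, without covariates, 2-sided, and Benjamini-Hochberg adjustment over 13560 genes at 0.05. A log2 fold change is on that scale and understates changes of low genes. Set 2 was fitted alone, and the difference between sets in a fit of both. The test was tried on simulated data. The members and the 28 gene lists were chosen with earlier results of these data known. Named genes are Cop1, Esr1, Etv1, Etv4, Etv5, Ins1 and Ins2, the 15 called genes with the largest change in each direction that reach a mean of 5 RPKM and do not overlap between groups, and from each list the called members of smallest adjusted p (at most 5), or the 2 of highest mean where none is called. List members named with their difference as not called, and members named to complete a list's calls, are outside this rule and were chosen after their values were seen. A count of 99 called genes covers those of the rule and further genes marked as chosen after their values were seen. Members named only to complete a list's calls, such as Scg2, Vgf and Kcnj11, are not among them. Of these 99, 18 overlap another tested gene, and 7 of the overlapping genes were called in the same direction. Some genes that the rule names are not reported here. Alternatives covered the pseudocount, filter, scaling, variance model, library weights, a 2-fold minimum and each library left out.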

Additional observations from a re-analysis of the deposited data

Results flagged for a closer look

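For 8 of the genes selected, the change after Cop1 deletion differed between set 1 and set 2, by the test of the difference itself in limma (set 1 minus set 2, log2 units). The difference was 1.87 for Asb9 (adjusted p = 0.012), 1.44 for Gm15663 (0.027), 1.62 for Hunk (0.01), 1.84 for Car8 (0.011), 1.71 for Krtap17-1 (0.011) and 1.71 for Angpt2 (0.013). Hunk is an example of a rise in both sets, by 2.52 in set 1 and 0.90 in set 2 (adjusted p = 0.042 in set 2), and Gm15663 also rose in both, by 2.60 and 1.16. Car8 (0.16, adjusted p = 0.55) and Angpt2 (0.17, adjusted p = 0.66) were not called in set 2. Asb9 and Krtap17-1 were too low to be tested in set 2 alone. There Asb9 averaged 0.689 RPKM in Cop1 deletion and 0.191 RPKM in control libraries, and Krtap17-1 0.174 RPKM in Cop1 deletion and 0.0579 RPKM in control libraries (n = 4 each). At such levels the pseudocount of 0.5 holds log2 fold changes near 0, so for these 2 genes the difference between sets is not read as one of fold change.

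The other two, chosen after their values were seen, had the lower log2 fold change in set 1. Irf1, an interferon-response factor gene, differed by -1.37 (adjusted p = 0.0063). Its control mean was 110 RPKM in set 1 and 14.6 RPKM in set 2. Dusp5, an ERK phosphatase of the nucleus, differed by -1.37 (adjusted p = 0.013), with 0.21 in set 1 (adjusted p = 0.19, and 0.043 with equal total RPKM) and a rise of 1.58 in set 2. It averaged 140 RPKM in Cop1 deletion and 122 RPKM in control libraries of set 1, and 58.5 and 19.3 RPKM in set 2. For both genes the control levels of the sets were thus far apart, and the part of this in the difference was not tested. The groups of set 1 hold 3 libraries each, too few to test a library as an outlier, and the libraries of set 2 were not tested.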

How the results depend on the processing

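No paired analysis was possible because the labels carry no replicate numbers, and those used here follow accession order. Of 18 alternatives, those that keep all libraries and changed the counts by over 1.5 times were equal total RPKM (1158 higher, 284 lower), the spread taken from 10 set 1 libraries (1022, 1119), array weights (2148, 2268) and a 2-fold minimum in the test (8, 2). Without 1 library, 205 to 750 genes were higher and 170 to 727 lower. The counts also changed by over 1.5 times, to 302 and 248 without Cop1 deletion replicate 1, 205 and 170 without Cop1 deletion replicate 2, 283 and 252 without Cop1 deletion replicate 3, and 285 and 211 without control replicate 1. Cop1 reached -0.41 (limma adjusted p = 0.0096) with array weights and was not called under the other alternatives that tested it (the minimum of 5 RPKM leaves it out), and the cause was not tested. Genes whose change differed between sets numbered 68, against 95 with a pseudocount of 1, 63 with equal total RPKM and 62 without the library labelled control replicate 2. Of the 99 called genes counted above, without members named only to complete a list's calls, 70 stayed called under every alternative that keeps all libraries and sets no minimum change. Under all 18, 8 stayed called, and none turned direction. Without Cop1 deletion replicate 2, 25 of the higher and 25 of the lower of these genes were no longer called, and without the library labelled control replicate 2, 2 and 4. Ctrb1 turned to -0.02 and Cela2a to -0.01 without control replicate 3 (adjusted p = 0.99 each), and with 1 library left out they ranged up to 1.0 and 0.90. In these RPKM values, genes near 0.5 RPKM and below are limited by the pseudocount, and 3 libraries a group limit the rest.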

Other observations

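Several genes outside the lists, chosen after their values were seen, separated the groups with little spread. Ramp2, a partner of the calcitonin receptor-like receptor, measured 30.4, 30.8 and 28.1 RPKM in Cop1 deletion libraries, against 7.83, 9.98 and 9.45 RPKM in control libraries (log2 fold change 1.66, SE 0.10, limma adjusted p = 0.00032). Dmpk, a protein kinase gene, measured 3.39, 3.44 and 3.34 RPKM in Cop1 deletion, against 9.24, 9.82 and 10.3 RPKM in control libraries (-1.40, SE 0.07, adjusted p = 0.00022). In both genes the library labelled control replicate 2 lay with the other controls. Neither was called in set 2 (Ramp2 0.53, adjusted p = 0.17, and Dmpk -0.65, adjusted p = 0.062), and the differences between sets were not called (adjusted p = 0.062 and 0.13).

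Of 2 transcription factor genes of inflammatory signalling, chosen in the same way, both were lower. Irf1 measured 40.2, 48.7 and 47.2 RPKM in Cop1 deletion libraries, against 111, 120 and 98.8 RPKM in control libraries (-1.27, SE 0.10, adjusted p = 0.00086). Relb, an NF-κB subunit, measured 11.2, 13 and 11.5 RPKM in Cop1 deletion, against 31, 41 and 24.1 RPKM in control libraries (-1.36, SE 0.18, adjusted p = 0.0069). In set 2, Irf1 was at 0.10 (adjusted p = 0.69) and Relb at -0.17 (adjusted p = 0.74). Control means there were 14.6 RPKM for Irf1 and 6.49 RPKM for Relb, against 110 and 32 RPKM in set 1.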
